A study of Mus musculus with 3 samples.

Results

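The genes that build and sulfate glycosaminoglycans, the sugar chains of proteoglycans, were followed through the cells of the mouse fracture callus. The set is a given list of 40 genes out of the 32285 in the deposited matrices, and each was matched by its symbol to 1 row of the matrices. It holds 3 genes of sugar nucleotide supply, 6 of the linkage region that joins chains to core proteins, 6 of chondroitin chain growth, 9 that sulfate or epimerize chondroitin, dermatan, and keratan sulfate, 4 of sulfate supply, 11 of heparan sulfate, and 1 of hyaluronan.

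The cells came from femoral fractures of untreated C57BL/6 mice, with no age or genetic change given in the labels, taken on day 7, day 10, and day 14 after fracture. Calluses were freed of muscle and marrow and digested with collagenase, and live cells without CD45, CD31, and TER119, the surface markers of leukocytes, endothelial cells, and erythroid cells, were sorted and captured in droplets. Each day gave 1 library, so no difference between days or groups could be set against the variation between animals, and no p-values are given. Each mRNA molecule was counted at its 3′ end by a unique molecular identifier (UMI), and levels are UMIs of a gene per 1000000 UMIs (CPM) summed over the cells of a group.

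A proteoglycan chain starts when a xylose is placed on a serine of the core protein, and a short linker of galactoses and a glucuronic acid follows. The next sugar decides between chondroitin or dermatan sulfate and heparan sulfate, and sulfotransferases in the Golgi then decorate the chain with sulfate taken from an activated donor made in the cell. Cartilage is packed with the chondroitin sulfate proteoglycan aggrecan, and people who lack the sulfate transporter *SLC26A2* or the donor synthase *PAPSS2* have skeletal dysplasias.

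Cells were kept with 500 to 5000 genes, at most 10% mitochondrial UMIs, at most 5% hemoglobin UMIs, no UMI of *Ptprc*, which encodes CD45, and at least 50 UMIs per 10,000 in 5 matrix genes (*Col1a1*, *Col1a2*, *Col2a1*, *Col3a1*, and *Sparc*). Stromal cells so defined were 219, 6573, and 9516 at the 3 days in order, with medians of 17993, 17372, and 15873.5 UMIs. The day 7 library stood apart, because stromal cells were 3.12% of its cells within the limits, against 99.7% and 96.6% at day 10 and day 14, and its other cells mostly carried *Ptprc*. The 5 neutrophil marker genes summed to 2122 CPM in its stromal cells, against 25.3 CPM and 190 CPM at the later days, so all calls rest on day 10 and day 14 and day 7 values stand beside them. Libraries shared few cell barcodes (29 between day 7 and day 10, 42 between day 7 and day 14, 35 between day 10 and day 14), and 18 of the last were stromal cells in both libraries, against 0 for day 7 with either.

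Each of 6 groups was cut from the stromal cells by the UMIs per 10,000 of 1 gene. *Cnmd* encodes chondromodulin of cartilage, and *Cnmd*-high cells (at least 20, with *Col10a1* below 10) numbered 2329 at day 10 and 1284 at day 14 and were compared with cells without a *Cnmd* UMI and with *Col10a1* below 10 (1453 and 3405 cells). *Col10a1* encodes the collagen of hypertrophic cartilage, and *Col10a1*-high cells (at least 100; 472 and 1066 cells) were compared with the *Cnmd*-high cells. *Aspn*-high cells (at least 20; 1464 and 3184 cells), *R3hdml*-high cells (at least 2; 324 and 521 cells), *Ifitm5*-high cells (at least 10; 81 and 272 cells), and *Rgs5*-high cells (at least 20; 71 and 200 cells) were each compared with all other stromal cells, which include the *Cnmd*-high cells. At day 7 the *Cnmd* comparison had 45 and 107 cells, and the other groups had fewer than 20 cells and were left out. Groups overlapped, since 342 cells at day 10 and 383 cells at day 14 met more than 1 cutoff.

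The groups carried the markers of the cell types they stand for. In both later libraries, 7 of 7 chondrocyte markers were at least 2-fold higher in *Cnmd*-high cells, 6 of 6 hypertrophic chondrocyte markers in *Col10a1*-high cells, 5 of 5 fibroblastic osteoprogenitor markers in *Aspn*-high cells, 7 of 7 osteoblast markers in *Ifitm5*-high cells, and 4 of 5 pericyte markers in *Rgs5*-high cells. *R3hdml*-high cells had *Col10a1*, *Ihh*, and *Ibsp* at least 2-fold higher and shared 60 cells at day 10 and 152 cells at day 14 with the *Col10a1*-high cells, so no cell type is named for them. *Col10a1*-high cells also carried 4 of 7 osteoblast markers at least 2-fold higher, *Bglap* and *Ibsp* among them. The gene of the cutoff is itself in 4 of these lists. The 5 macrophage markers summed to at most 10.9 CPM and the 4 endothelial markers to at most 3.1 CPM over the stromal cells of a day.

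A gene was called when it differed at least 2-fold in the same direction at day 10 and at day 14, and 9173 genes with at least 5 CPM in the stromal cells of both days could be called, 35 of the 40 among them. Ratios carry exact 95% intervals that cover counting error only. The map of log2 ratios gives all 40 genes in all comparisons.

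**Figure D1:**
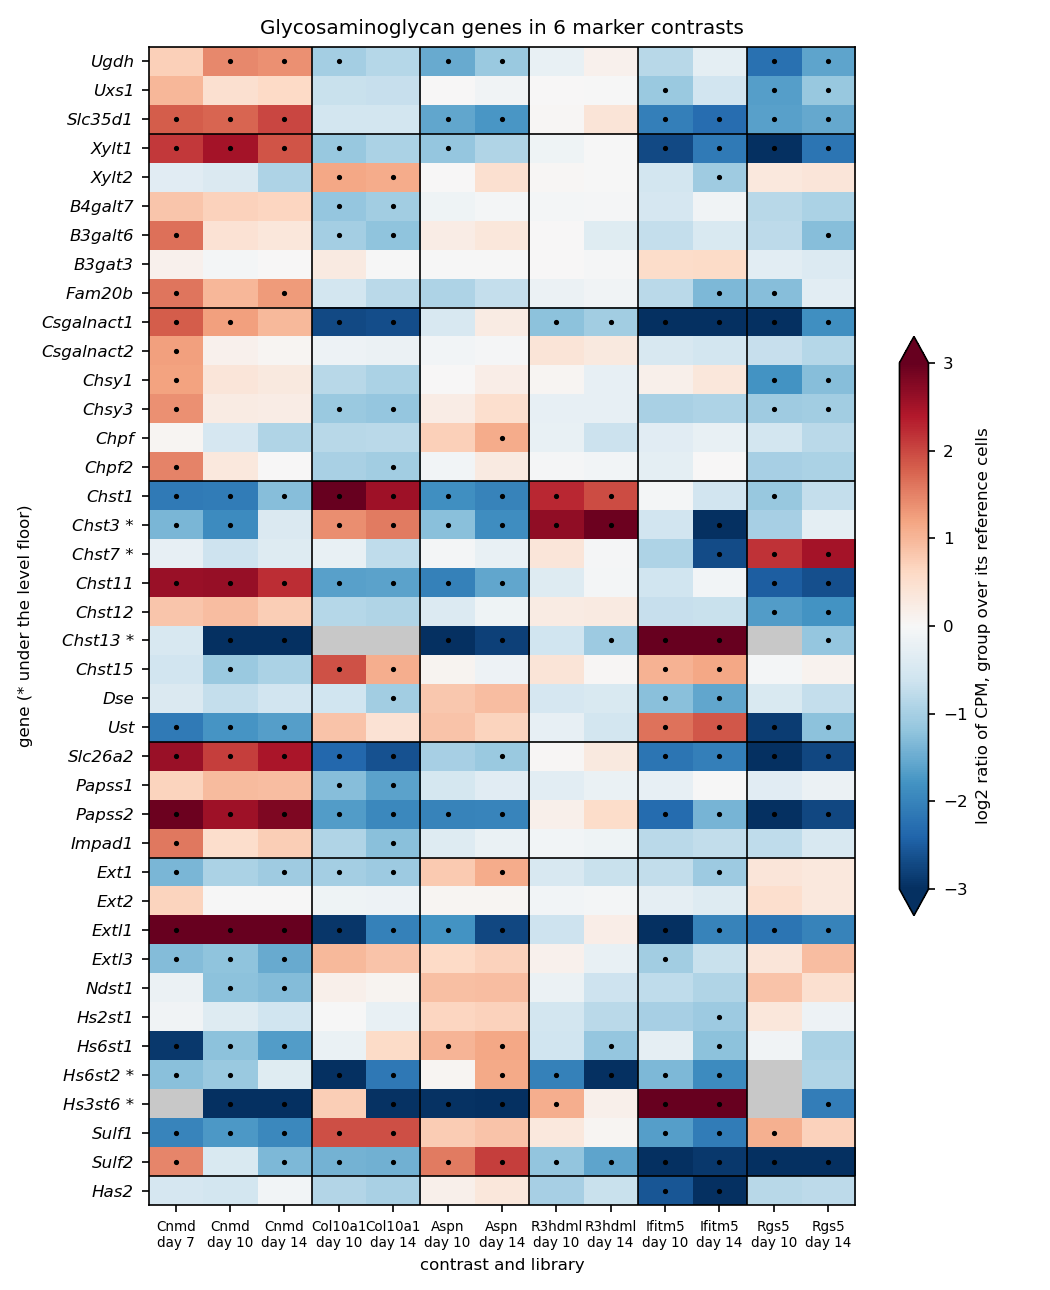
Log2 ratios of CPM, group over reference cells, for the 40 glycosaminoglycan genes (rows, by role from sugar nucleotides at the top to hyaluronan at the bottom) in 6 marker comparisons and each library (columns). Black dots mark ratios of at least 2-fold, gray fields have no ratio because counts were too low, and asterisks mark the 5 genes under 5 CPM. *Papss2*, *Slc26a2*, *Chst11*, and *Extl1* are red in the *Cnmd* columns and blue in the *Col10a1*, *Aspn*, and *Rgs5* columns.

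In *Cnmd*-high cells 2 of the 3 sugar nucleotide genes, 2 of the 4 sulfate supply genes, the xylosyltransferase gene *Xylt1*, and the chondroitin sulfotransferase gene *Chst11* were higher, and of the 9 tested heparan sulfate genes 4 were lower and 1 was higher. Of the 35 genes, 7 were called higher (*Ugdh*, *Slc35d1*, *Xylt1*, *Chst11*, *Slc26a2*, *Papss2*, and *Extl1*) and 6 lower (*Chst1*, *Ust*, *Extl3*, *Ndst1*, *Hs6st1*, and *Sulf1*). Over all genes tested, 3.06% were called higher and 10.7% lower in this comparison. The 35 genes had a median log2 ratio of 0.25 at day 10 and 0.07 at day 14, against -0.28 and -0.30 over all genes. With ratios centered on that median, a setting chosen after seeing the data, 11 genes were higher and 2 lower. Centering moves the ratio of every gene up, and the shares over all genes were not counted in this setting.

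*Slc26a2*, the transporter that brings sulfate into the cell, stood at 860, 466, and 358 CPM in *Cnmd*-high cells at day 7, day 10, and day 14, and at 142, 111, and 65.5 CPM in the reference cells. Its log2 ratios were 2.60 (2.38 to 2.82), 2.07 (2.01 to 2.13), and 2.45 (2.39 to 2.51), so it was higher with *Cnmd* in all 3 libraries. *Papss2*, a synthase of the sulfate donor, had 731, 325, and 319 CPM against 94.4, 55.6, and 45.8 CPM, with log2 ratios of 2.95 (2.69 to 3.22), 2.55 (2.46 to 2.63), and 2.80 (2.73 to 2.87). Its paralogue *Papss1* was higher by less than the 2-fold limit, at 95.1 CPM against 49.6 CPM at day 10 and 99.0 CPM against 51.9 CPM at day 14. *Impad1*, a Golgi phosphatase that clears the spent donor, had log2 ratios of 1.59, 0.53, and 0.75 over the 3 days. All 4 sulfate supply genes had positive ratios on every day, and 2 of them were called.

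Of the 3 sugar nucleotide genes, 2 were called higher. *Ugdh*, which oxidizes UDP-glucose to UDP-glucuronic acid, had 316, 312, and 235 CPM in *Cnmd*-high cells against 192, 114, and 90.5 CPM in the reference cells. *Slc35d1*, which carries UDP-sugars into the endoplasmic reticulum, had 118, 75.8, and 61.0 CPM against 33.9, 22.6, and 15.3 CPM. *Uxs1*, which makes UDP-xylose from UDP-glucuronic acid, was less different, with log2 ratios of 0.99, 0.47, and 0.60. The order of these 3 genes by ratio was the same at day 10 and day 14, with *Slc35d1* first.

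In the linkage region, *Xylt1*, a xylosyltransferase that starts the chain, had 447, 281, and 245 CPM in *Cnmd*-high cells and 103, 49.5, and 66.8 CPM in the reference cells. Its log2 ratios were 2.12, 2.51 (2.41 to 2.60), and 1.88 (1.81 to 1.94). *Xylt2*, the second xylosyltransferase, went the other way without a call, from 10.6 CPM to 7.89 CPM at day 10 and from 11.5 CPM to 6.01 CPM at day 14. *Fam20b*, a kinase that phosphorylates the xylose, lay at the limit, with log2 ratios of 1.00 (0.86 to 1.14) at day 10 and 1.28 at day 14, and the value at day 10 fell just short of a call. The galactosyltransferases *B4galt7* and *B3galt6* had log2 ratios between 0.33 and 0.70 at the later days, and the glucuronosyltransferase *B3gat3* had -0.06 and 0.00. The 6 linkage genes thus ran from a call to no difference within 1 short pathway.

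Chondroitin chain growth had no called gene in this comparison. *Csgalnact1*, which adds the first *N*-acetylgalactosamine and so commits the chain to chondroitin, came nearest, with 147, 119, and 102 CPM against 41.7, 50.7, and 52.1 CPM, and its day 14 log2 ratio of 0.96 (0.88 to 1.04) missed the 2-fold limit. Its paralogue *Csgalnact2* had 0.13 and 0.07 at the later days. The chain-lengthening enzymes *Chsy1* and *Chsy3* had log2 ratios of 0.37 and 0.25 at day 10 and 0.28 and 0.22 at day 14, and the partner proteins *Chpf* and *Chpf2* had -0.50 and 0.31 at day 10 and -0.89 and 0.00 at day 14. At day 7, with 45 cells, 5 of these 6 genes were more than 2-fold higher, *Csgalnact2* at 97.5 CPM against 41.7 CPM and *Chpf2* at 127 CPM against 45.6 CPM among them, and only *Chpf* was level, at 94.3 CPM against 90.5 CPM. The share of all genes past 2-fold at day 7 was not counted, so this count has no such share beside it. Whether the day 7 ratios differ from the later ones beyond animal variation could not be tested with 1 library.

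Among the modifying enzymes, *Chst11* and *Chst1* moved apart. *Chst11*, a chondroitin 4-O-sulfotransferase, had 396, 212, and 152 CPM in *Cnmd*-high cells against 65.8, 34.7, and 32.7 CPM, with log2 ratios of 2.59, 2.61 (2.50 to 2.72), and 2.22 (2.13 to 2.30). *Chst1*, which sulfates the galactose of keratan sulfate, had 24.1, 9.07, and 14.1 CPM against 105, 38.9, and 33.9 CPM. *Ust*, which sulfates the uronic acid of dermatan and chondroitin sulfate, was also called lower, with 3.97 CPM against 13.6 CPM at day 10 and 4.04 CPM against 12.8 CPM at day 14. *Chst12*, a second 4-O-sulfotransferase, had log2 ratios of 0.94 and 0.75 at the later days, while *Chst15*, which adds a further sulfate to 4-sulfated units, had -1.12 and -0.96, and *Dse*, the epimerase that turns chondroitin into dermatan sulfate, had -0.70 and -0.58. None of *Chst12*, *Chst15*, and *Dse* was called.

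Of the 11 heparan sulfate genes, *Extl1* was the one called higher and it had the largest ratio of the set. *Extl1* encodes an exostosin-like glycosyltransferase and had 28.3 CPM in *Cnmd*-high cells against 1.62 CPM at day 10 and 17.8 CPM against 0.502 CPM at day 14, with log2 ratios of 4.13 (3.63 to 4.67) and 5.15 (4.53 to 5.84). At day 7 it had 29 UMIs in 45 *Cnmd*-high cells and 4 UMIs in 107 reference cells. Of all genes tested, 0.174% had a higher mean ratio than *Extl1* and 0.72% a higher one than *Papss2*. Lower were *Extl3*, which adds the first heparan sugar (8.77 and 6.84 CPM against 20.3 and 19.6 CPM), *Ndst1*, which swaps acetyl groups for sulfate (14.8 and 13.5 CPM against 34.3 and 33.2 CPM), *Hs6st1*, a 6-O-sulfotransferase (5.19 and 3.48 CPM against 12.1 and 11.1 CPM), and *Sulf1*, an extracellular sulfatase that removes 6-O-sulfates (45.6 and 38.6 CPM against 150 and 148 CPM). *Ext1*, a subunit of the heparan sulfate polymerase, had log2 ratios of -0.95 and -1.07, and *Ext2*, the other subunit, had -0.02 and 0.00 at the later days, so the 2 subunits did not move together. *Hs2st1*, a 2-O-sulfotransferase, had -0.39 and -0.60, and *Sulf2*, the second extracellular sulfatase, had -0.45 and -1.34. The centered setting ended the call of *Ndst1*, *Extl3*, and *Hs6st1*, and the call of *Chst1*. *Has2*, the hyaluronan synthase, was not called, with log2 ratios of -0.51, -0.56, and -0.07.

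Levels of some genes followed the *Cnmd* count in steps rather than changing only at the cutoff. In the libraries given below these were *Papss2*, *Slc26a2*, *Sulf1*, and, at day 10, *Chst11*. All stromal cells were split at 0, 5, and 20 *Cnmd* UMIs per 10,000. *Papss2* stood at 58.1, 86.1, 269, and 330 CPM from the lowest to the highest bin at day 10, at 48.0, 73.2, 201, and 318 CPM at day 14, and at 108, 156, 326, and 719 CPM at day 7. At day 10 *Chst11* had 35.1, 50.8, 146, and 215 CPM, and *Slc26a2* had 109, 155, 341, and 450 CPM. At day 7 *Chst11* was lower in the second bin than in the first, with 70.9, 63.7, 205, and 414 CPM. *Sulf1* ran down, with 158, 146, 66.8, and 44.4 CPM at day 10 and 152, 130, 67.7, and 38.7 CPM at day 14. *Chst1* was not stepwise, with its highest level in the second bin at day 10 (44.3, 54.3, 35.4, and 10.2 CPM) and at day 14 (38.5, 54.8, 44.4, and 15.7 CPM). *Csgalnact1* dipped in the second bin, with 48.1, 41.2, 64.9, and 117 CPM at day 10. The plot of 6 genes over the bins shows both markers.

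**Figure D2:**
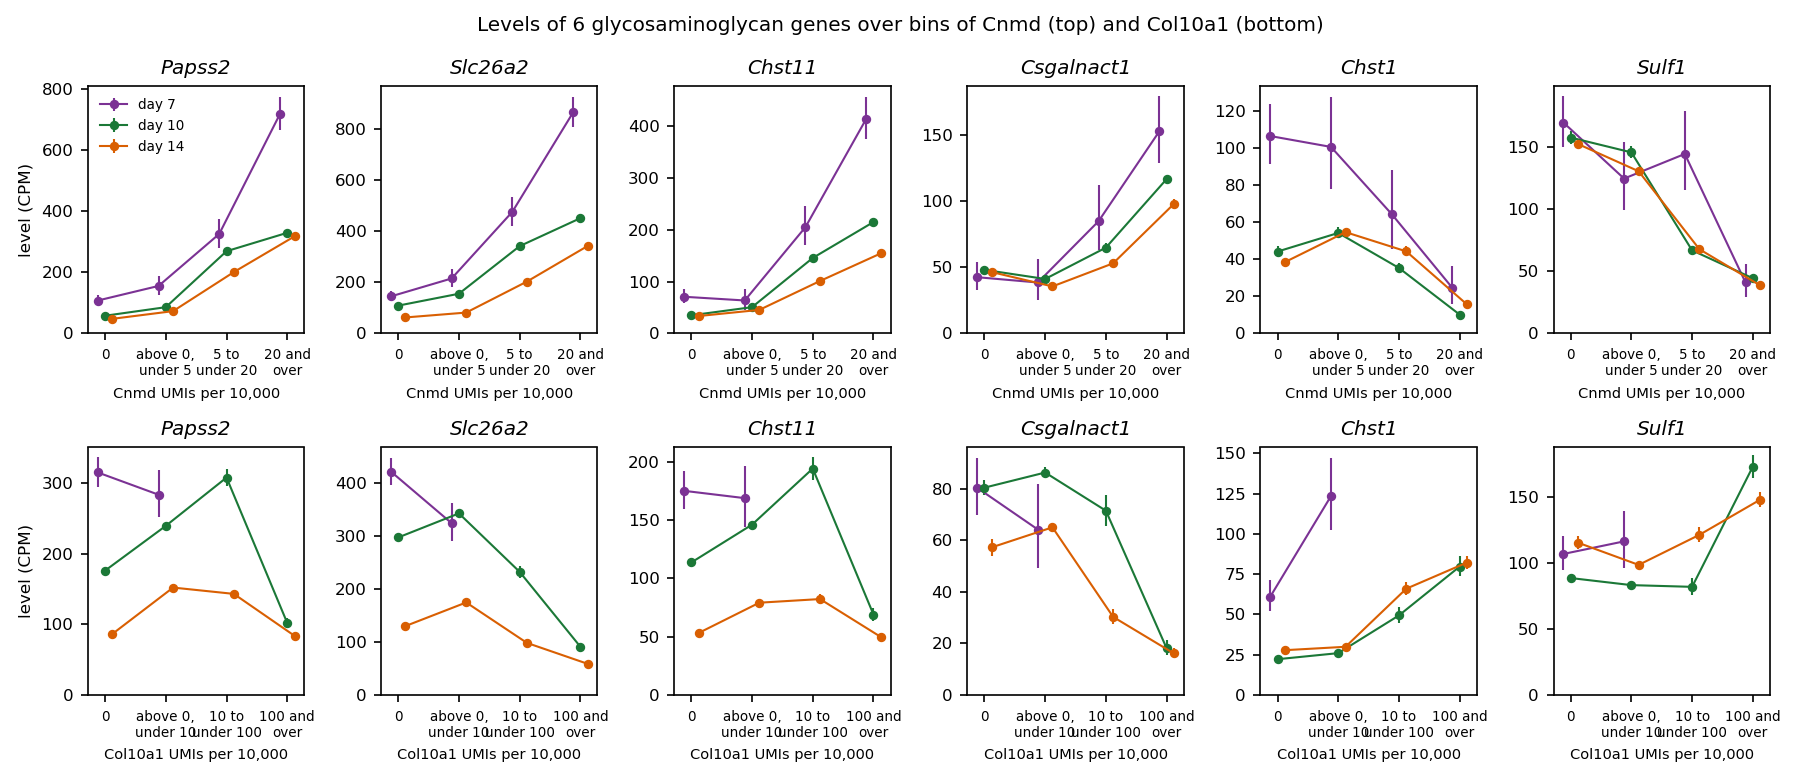
Levels (CPM, y axis from 0) of *Papss2*, *Slc26a2*, *Chst11*, *Csgalnact1*, *Chst1*, and *Sulf1* in stromal cells over bins of *Cnmd* (top) and *Col10a1* (bottom) UMIs per 10,000, with 1 line per library, exact Poisson 95% intervals as bars, and bins under 20 cells left out. *Papss2* climbs with *Cnmd* in all 3 libraries and drops in the highest *Col10a1* bin, where *Chst1* and *Sulf1* have their highest levels at day 10 and day 14.

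The sequences before the start sites are shown for 4 genes that had large ratios in different cells, 3 of them high with *Cnmd* (*Papss2*, *Chst11*, and *Extl1*) and 1 with *Ifitm5* (*Chst13*). RefSeq windows of the GRCm38.p6 build, taken as the 250 bases before each annotated start, were found for 29 of the 40 genes, 36 windows in all. Read 5′ to 3′ on the strand of the gene, with each CpG in capitals, they are as follows.
Papss2, upstream start, chr19:32595465-32595714, plus strand: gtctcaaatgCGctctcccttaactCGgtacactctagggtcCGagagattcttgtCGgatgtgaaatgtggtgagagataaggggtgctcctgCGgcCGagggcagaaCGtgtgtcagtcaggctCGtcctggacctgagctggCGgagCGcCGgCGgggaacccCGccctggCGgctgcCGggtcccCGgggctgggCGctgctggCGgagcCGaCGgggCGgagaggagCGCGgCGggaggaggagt
Papss2, downstream start, chr19:32619755-32620004, plus strand: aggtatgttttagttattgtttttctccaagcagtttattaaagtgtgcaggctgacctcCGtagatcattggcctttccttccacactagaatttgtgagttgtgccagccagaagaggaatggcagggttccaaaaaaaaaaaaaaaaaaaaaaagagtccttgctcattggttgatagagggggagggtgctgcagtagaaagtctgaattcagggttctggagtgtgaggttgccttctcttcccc
Chst11, chr10:82985247-82985496, plus strand: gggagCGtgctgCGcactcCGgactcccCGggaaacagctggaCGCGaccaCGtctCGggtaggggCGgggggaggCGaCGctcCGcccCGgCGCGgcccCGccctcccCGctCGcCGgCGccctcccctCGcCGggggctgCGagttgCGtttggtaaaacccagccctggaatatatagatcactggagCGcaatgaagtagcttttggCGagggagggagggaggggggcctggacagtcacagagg
Extl1, chr4:134372548-134372797, minus strand: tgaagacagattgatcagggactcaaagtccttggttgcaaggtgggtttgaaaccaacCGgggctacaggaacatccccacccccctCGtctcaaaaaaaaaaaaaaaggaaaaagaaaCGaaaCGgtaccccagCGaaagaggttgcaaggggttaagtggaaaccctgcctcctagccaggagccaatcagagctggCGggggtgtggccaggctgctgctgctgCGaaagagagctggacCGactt
Chst13, chr6:90325186-90325435, minus strand: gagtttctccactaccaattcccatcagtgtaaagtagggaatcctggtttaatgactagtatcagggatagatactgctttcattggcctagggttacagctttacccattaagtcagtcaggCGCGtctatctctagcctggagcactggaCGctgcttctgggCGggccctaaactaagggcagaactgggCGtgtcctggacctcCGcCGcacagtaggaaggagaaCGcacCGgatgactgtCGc

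The windows differed in CpG content, which the list of genes did not use. *Chst11* had 26 CpG and 70.0% G or C, *Extl1* had 8 CpG and 53.2%, and *Chst13* had 10 CpG and 52.8%. The *Extl1* window lies inside its GENCODE M21 gene, whose 5′ end is at position 134383850, so these values describe an internal start. *Papss2* had 24 CpG before its upstream start and 1 CpG before its downstream start, and 3′ counting does not tell transcripts from these starts apart. The upstream start lies in no GENCODE M21 transcript, but the GENCODE gene begins shortly after it, at position 32595790, while the upstream window ends at 32595714. The median window of the set held 19 CpG, with a range from 1 to 38, against a median of 6 CpG over all 32851 windows. The letters ACAAAG, a core motif bound by SOX factors, were searched on both strands and occurred in 16.5% of all windows and in 1 of the 36 windows of the set, that of *Chst3*. The letters TGTGGT, a core motif bound by RUNX factors, occurred in 14.0% of all windows and in 2 of the 36, those of *Dse* and the upstream start of *Papss2*. These letters were searched in the 250 bases only and say nothing of sites elsewhere.

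From *Cnmd*-high to *Col10a1*-high cells, *Csgalnact1* and 3 of the 4 sulfate supply genes were lower, and the sulfotransferases *Chst1* and *Chst15* were higher. Of the 35 genes, 4 were called higher (*Xylt2*, *Chst1*, *Chst15*, and *Sulf1*), where 6.41% of all genes were, and 11 lower (*B4galt7*, *B3galt6*, *Csgalnact1*, *Chsy3*, *Chst11*, *Slc26a2*, *Papss1*, *Papss2*, *Ext1*, *Extl1*, and *Sulf2*), where 7.66% were. The set had a median log2 ratio of -0.84 at day 10 and -0.90 at day 14, against 0.05 and a value close to 0 over all genes. The summed level of the 40 genes was 1724 CPM and 1450 CPM in *Col10a1*-high cells, against 3171 CPM and 2735 CPM in *Cnmd*-high cells. The summed heparan sulfate genes were higher in *Col10a1*-high cells, with 369 CPM and 303 CPM against 329 CPM and 259 CPM.

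*Csgalnact1* had 18.2 CPM in *Col10a1*-high cells against 119 CPM in *Cnmd*-high cells at day 10 and 16.1 CPM against 102 CPM at day 14, with log2 ratios of -2.71 (-2.96 to -2.48) and -2.65 (-2.83 to -2.48). *Slc26a2* had 91.1 CPM against 466 CPM and 58.8 CPM against 358 CPM. *Papss2* had 102 CPM against 325 CPM and 83.9 CPM against 319 CPM, and *Papss1* was called here too, with 39.4 CPM against 95.1 CPM and 32.6 CPM against 99.0 CPM. Of the 4 sulfate supply genes, 3 were thus called lower, and *Impad1* had log2 ratios of -0.90 and -1.26. *Extl1* had 3.76 CPM against 28.3 CPM at day 10 and 4.35 CPM against 17.8 CPM at day 14, and *Chst11* had 69.0 CPM against 212 CPM and 49.7 CPM against 152 CPM. The sulfatase *Sulf2* had the same log2 ratio of -1.43 in both libraries, from 68.7 CPM and 40.2 CPM in *Cnmd*-high cells to 25.6 CPM and 14.9 CPM in *Col10a1*-high cells.

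*Chst1* had the largest rise, from 9.07 CPM to 79.7 CPM at day 10 and from 14.1 CPM to 82.2 CPM at day 14, with log2 ratios of 3.14 (2.96 to 3.32) and 2.55 (2.38 to 2.72), and 0.894% of all genes tested had a higher mean ratio. *Sulf1* had 173 CPM against 45.6 CPM and 148 CPM against 38.6 CPM, so the 2 extracellular sulfatases moved in opposite directions. *Chst15* had 31.6 CPM against 8.41 CPM and 22.2 CPM against 10.5 CPM. *Xylt2* had 17.6 CPM against 7.89 CPM and 12.9 CPM against 6.01 CPM, while *Xylt1* had log2 ratios of -1.14 and -0.95. Over the bins of *Col10a1*, *Chst1* climbed at day 10 (22.2, 26.0, 49.4, and 79.7 CPM) and at day 14 (27.8, 29.9, 66.0, and 82.2 CPM). *Csgalnact1* was level in the first 2 bins and then dropped, with 80.5, 86.4, 71.6, and 18.2 CPM at day 10 and 57.3, 65.1, 30.3, and 16.1 CPM at day 14. *Papss2* rose to its highest level in the next to highest bin at day 10 (176, 240, 308, and 102 CPM) and in the second at day 14 (86.6, 152, 143, and 83.9 CPM) before it dropped.

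The remaining called genes lay near the limit. *B4galt7* had log2 ratios of -1.17 and -1.05, *B3galt6* -1.02 and -1.21, *Chsy3* -1.11 and -1.16, and *Ext1* -1.02 and -1.09. The calls of *B4galt7* and *Ext1* were lost in 6 and 5 of the 12 alternative settings, with mean log2 ratios between -0.96 and -1.12 and between -0.84 and -1.06 there, and those of *B3galt6* and *Chsy3* in 4 and 3. Halved cutoffs and thinned cells each ended the calls of *Xylt2* and *Chst15*, and left 2 genes higher. Not called were *Ugdh*, *Uxs1*, *Slc35d1*, *Fam20b*, *Chsy1*, *Chpf*, *Chpf2*, *Chst12*, *Dse*, and *Has2*, all with log2 ratios between -0.55 and -1.04 at both days, and *B3gat3*, *Csgalnact2*, *Ext2*, *Ndst1*, and *Hs2st1*, between -0.23 and 0.26. *Extl3* had 0.98 and 0.86, *Ust* had 0.85 and 0.42, and *Hs6st1* had -0.21 and 0.57.

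*Aspn*-high cells, with the markers of fibroblastic osteoprogenitors, were compared with the other stromal cells. In them 2 of the 3 sugar nucleotide genes and 1 of the 4 sulfate supply genes were called lower. Of the heparan sulfate genes, 2 were called higher and 1 lower. Of the 35 genes, 2 (5.71%) were called higher (*Hs6st1* and *Sulf2*), close to the 5.46% of all genes. Lower were 6 (17.1%; *Ugdh*, *Slc35d1*, *Chst1*, *Chst11*, *Papss2*, and *Extl1*), where 3.87% of all genes were. Without the 20 top genes in the totals and with centered ratios, 1 was higher and 8 lower, and with means over cells 1 was higher and 6 lower. The median log2 ratio of the set was 0.00 and 0.06, against 0.20 and 0.19 over all genes.

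*Sulf2* was the clearest heparan sulfate gene here, with 152 CPM against 51.7 CPM at day 10 and 140 CPM against 33.5 CPM at day 14, and log2 ratios of 1.55 (1.49 to 1.62) and 2.06 (2.01 to 2.12). *Hs6st1* had 11.6 CPM against 5.73 CPM and 11.7 CPM against 5.18 CPM, and this call was lost in 6 of the 12 alternative settings, with mean log2 ratios from 0.86 to 1.08. *Ext1* (0.78 and 1.11), *Ndst1* (0.91 and 0.93), *Hs2st1* (0.63 and 0.69), *Extl3* (0.59 and 0.68), and *Sulf1* (0.77 and 0.85) had positive log2 ratios short of a call, and *Ext2* had 0.06 at both days. The heparan sulfate genes summed to 588 CPM and 586 CPM, the highest of the 6 groups, against 329 CPM and 259 CPM in *Cnmd*-high cells. The 2 sulfatases were a large part of the sum in *Aspn*-high cells. *Sulf1* had 137 CPM and 159 CPM there and *Sulf2* 152 CPM and 140 CPM, against 45.6 and 38.6 CPM and 68.7 and 40.2 CPM in *Cnmd*-high cells. Of the tested heparan sulfate genes, *Extl1* was the exception and was lower, with 4.78 CPM against 16.7 CPM and 1.13 CPM against 7.47 CPM.

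Among the chondroitin and dermatan genes, *Dse* (0.81 and 0.91), *Ust* (0.86 and 0.67), and *Chpf* (0.72 and 1.11) had positive log2 ratios without a call in *Aspn*-high cells. *Papss2* had 62.8 CPM against 253 CPM at day 10 and 43.9 CPM against 173 CPM at day 14, and *Slc26a2* (-0.99 and -1.11) missed the limit at day 10. *Chst11* had 38.6 CPM against 157 CPM and 30.7 CPM against 90.0 CPM, *Chst1* had 9.88 CPM against 35.3 CPM and 12.8 CPM against 51.5 CPM, and *Ugdh* had 92.3 CPM against 264 CPM and 79.4 CPM against 173 CPM. *Slc35d1* had 23.1 CPM against 67.8 CPM and 13.2 CPM against 44.2 CPM. *Xylt1* (-1.16 and -0.91) and *Fam20b* (-0.92 and -0.72) were lower without a call. The other 15 genes (*Uxs1*, *Xylt2*, *B4galt7*, *B3galt6*, *B3gat3*, *Csgalnact1*, *Csgalnact2*, *Chsy1*, *Chsy3*, *Chpf2*, *Chst12*, *Chst15*, *Papss1*, *Impad1*, and *Has2*) had log2 ratios between -0.52 and 0.50. The neutrophil markers summed to 224 CPM in *Aspn*-high cells at day 14. A setting added after seeing the data left out cells at or above a cutoff of *S100a8* and *S100a9* UMIs. It kept 3157 of the 3184 *Aspn*-high cells at day 14, and left 2 genes higher and 6 lower. Cells with neutrophil RNA below the cutoff stayed in.

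*R3hdml*-high cells differed from the other stromal cells in few of the genes. One was called higher (*Chst1*), where 0.436% of all genes were, and 2 lower (*Csgalnact1* and *Sulf2*), where 2.76% were. Without the 20 top genes in the totals, with means over cells, and with centered ratios, 1 was higher and 1 lower. The median log2 ratio of the set was -0.09 and -0.08, against -0.09 and -0.13 over all genes. *Chst1* had 119 CPM against 25.0 CPM at day 10 and 130 CPM against 33.5 CPM at day 14, the highest level of this keratan sulfate enzyme in any group. Its log2 ratios were 2.25 (2.14 to 2.37) and 1.96 (1.87 to 2.05), and 0.0654% of all genes tested had a higher mean ratio. *Csgalnact1* had 34.9 CPM against 81.4 CPM and 27.1 CPM against 56.3 CPM, a call lost in 7 of the 12 alternative settings, and *Sulf2* had 32.4 CPM against 73.6 CPM and 23.0 CPM against 68.6 CPM.

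*Papss2* (240 CPM and 191 CPM) and *Slc26a2* (311 CPM and 175 CPM) in *R3hdml*-high cells lay within 1.5-fold of the other stromal cells. *Chst3*, a chondroitin 6-O-sulfotransferase under the 5 CPM limit over all stromal cells, had its highest level in this group, with 10.2 CPM against 1.62 CPM at day 10 and 12.1 CPM against 1.57 CPM at day 14, and log2 ratios of 2.65 (2.22 to 3.07) and 2.95 (2.61 to 3.27). *R3hdml*-high and *Col10a1*-high cells thus both had more *Chst1* and *Chst3* and less *Csgalnact1* and *Sulf2* than their references, and they share cells. Of the other 32 tested genes, *Hs6st1* (-0.60 and -1.15) passed 2-fold at day 14 alone, *Has2* had -0.99 and -0.66, and the rest lay between -0.81 and 0.56.

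*Ifitm5*-high cells, with the markers of osteoblasts, had little of the chondroitin-starting *Csgalnact1* and of both sulfatases, and far more of 2 rare sulfotransferases than the other stromal cells. Of the 35 genes, 2 were called higher (*Chst15* and *Ust*), where 2.25% of all genes were, and 10 lower (*Slc35d1*, *Xylt1*, *Csgalnact1*, *Dse*, *Slc26a2*, *Papss2*, *Extl1*, *Sulf1*, *Sulf2*, and *Has2*), where 11.6% were. The median log2 ratio of the set was -0.77 and -0.73, against -0.24 and -0.27 over all genes. There were 81 and 272 cells, so intervals are wider than in the comparisons above.

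*Csgalnact1* had 4.30 CPM against 79.6 CPM at day 10 and 2.37 CPM against 55.9 CPM at day 14, with log2 ratios of -4.21 (-5.66 to -3.09) and -4.56 (-5.62 to -3.68). *Sulf2* had 6.45 CPM against 72.0 CPM and 9.02 CPM against 67.2 CPM, *Sulf1* had 29.4 CPM against 92.1 CPM and 26.1 CPM against 112 CPM, and *Has2* had 6.45 CPM against 38.4 CPM and 2.14 CPM against 21.2 CPM. *Extl1* rested on 2 and 6 UMIs, with log2 ratios of -3.34 (-6.39 to -1.49) and -2.00 (-3.45 to -0.87). *Xylt1* had 28.7 CPM against 187 CPM and 31.8 CPM against 138 CPM, and *Slc35d1* had 14.3 CPM against 59.6 CPM and 7.36 CPM against 35.7 CPM. *Slc26a2* had 66.6 CPM against 307 CPM and 35.8 CPM against 149 CPM, and *Papss2* had log2 ratios of -2.32 and -1.40 and *Dse* -1.26 and -1.56. *Papss1* did not follow *Papss2*, with log2 ratios of -0.24 and -0.01. Of the 23 uncalled genes, *B3gat3* (0.54 and 0.59) and *Chsy1* (0.16 and 0.34) had positive ratios at both days, and the others lay between -1.34 and 0.02.

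*Ust* was higher in *Ifitm5*-high cells, with 22.9 CPM against 7.38 CPM at day 10 and 29.4 CPM against 8.04 CPM at day 14, and *Chst15* had 31.5 CPM against 15.4 CPM and 40.1 CPM against 17.9 CPM, a call that halved cutoffs and means over cells ended. *Chst13*, another chondroitin 4-O-sulfotransferase, was under the 5 CPM limit over all stromal cells (0.688 CPM and 1.03 CPM) because few cells carried it. In *Ifitm5*-high cells its levels were 35.1 CPM and 21.8 CPM, while the other stromal cells had 0.259 CPM and 0.431 CPM, with log2 ratios of 7.08 (6.39 to 7.80) and 5.66 (5.18 to 6.15). *Hs3st6*, a heparan sulfate 3-O-sulfotransferase, had 78.8 CPM against 1.99 CPM and 99.7 CPM against 3.14 CPM, with log2 ratios of 5.31 (4.96 to 5.64) and 4.99 (4.79 to 5.18). At day 10 the 81 *Ifitm5*-high cells thus held 49 UMIs of *Chst13* while the other 6492 cells held 29, and 110 UMIs of *Hs3st6* while the others held 223. Without the 5 CPM limit, 4 genes were higher in these cells, and the share over all genes was not counted there.

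Free RNA in droplets can place UMIs in cells that do not express a gene, so shares of cells with a UMI are set beside those of *Ptprc*-positive cells. These cells are no clean measure of free RNA, since those of day 7 come from a library with 219 stromal cells and those of day 14 held more stromal RNA, with 9206 CPM of chondrocyte markers against 675 CPM at day 7. Day 10 had only 6 *Ptprc*-positive cells, so the day 10 shares have no comparison from their own library. Median depths were 18267 UMIs and 15751 UMIs in *Ifitm5*-high cells at day 10 and day 14, and 5045 UMIs and 9210 UMIs in *Ptprc*-positive cells at day 7 and day 14. After each cell was thinned to 2000 UMIs, *Hs3st6* was seen in 13.0% and 14.1% of *Ifitm5*-high cells, in 0.129% of *Ptprc*-positive cells at day 7, and in 0 of 169 at day 14. Without thinning the shares were 43.2% and 44.1% against 0.274% and 0%. *Chst13* was seen in 10.4% and 6.69% of *Ifitm5*-high cells and in 3.25% and 2.37% of *Ptprc*-positive cells, and without thinning in 37.0% and 23.2% against 11.4% and 8.67%. *Chst13* was thus also found in *Ptprc*-positive cells of both libraries. *Papss2* was seen in 38.7% and 39.5% of *Cnmd*-high cells and in 1.03% and 4.14% of *Ptprc*-positive cells, and without thinning in 85.8% and 86.2% against 3.44% and 20.2%. *Extl1* was seen in 6.06% and 4.53% of *Cnmd*-high cells and in 0 of 6188 and 0 of 169 *Ptprc*-positive cells (exact upper limits 0.0596% and 2.16%), and without thinning in 38.0% and 28.6% against 0.167% and 2.89%.

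*Rgs5*-high cells, with the markers of pericytes, had the lowest summed levels of chondroitin chain synthesis and sulfate supply of the 6 marker groups, and the heparan sulfate polymerase genes *Ext1* and *Ext2* were not called. None of the 35 genes was called higher, where 7.15% of all genes were, and 14 were called lower (*Ugdh*, *Uxs1*, *Slc35d1*, *Xylt1*, *Csgalnact1*, *Chsy1*, *Chsy3*, *Chst11*, *Chst12*, *Ust*, *Slc26a2*, *Papss2*, *Extl1*, and *Sulf2*), where 8.71% were. The median log2 ratio of the set was -0.84 and -0.94, against 0.11 and 0.12 over all genes. These were 71 and 200 cells of medians of 12529 UMIs and 9262.5 UMIs, shallower than the 17426.5 UMIs and 16020 UMIs of the other stromal cells, and 3 of 3 proliferation markers were called higher in them, and the part of depth or cycling in these ratios was not tested beyond thinning. With every cell thinned to 2000 UMIs, 13 of the 35 genes were lower and 0 higher, and the shares over all genes were not counted there.

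*Sulf2* had 1 UMI at day 10, a log2 ratio of -6.07 (-11.38 to -3.60), and to 6.99 CPM against 66.4 CPM at day 14. *Slc26a2* had 23.4 CPM against 306 CPM and 22.4 CPM against 148 CPM, *Papss2* had 16.0 CPM against 217 CPM and 20.5 CPM against 136 CPM, and *Xylt1* had 12.8 CPM against 186 CPM and 29.8 CPM against 137 CPM. *Chst11* had 24.5 CPM against 135 CPM and 11.7 CPM against 73.0 CPM, and *Csgalnact1* had 9.59 CPM against 79.3 CPM and 15.4 CPM against 54.9 CPM. *Extl1* had 0 UMIs in both libraries, which with up to 3 UMIs allowed per library gives log2 ratios of -2.18 or lower and -2.01 or lower. *Ugdh* had 49.0 CPM against 232 CPM and 48.9 CPM against 146 CPM. The other called genes had log2 ratios from -1.05 to -2.84, *Ust* among them with 1 UMI at day 10 and an interval of -8.14 to -0.36.

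Of the 9 tested heparan sulfate genes, 2 (22.2%) were called lower in *Rgs5*-high cells, where 8.71% of all genes were, and 7 were not called. *Ext1* (0.36 and 0.31), *Ext2* (0.51 and 0.32), *Extl3* (0.37 and 0.92), *Ndst1* (0.86 and 0.49), and *Sulf1* (1.06 and 0.70) had positive log2 ratios at both days. *Hs2st1* had 0.34 and -0.16, and *Hs6st1* had -0.11 and -0.95. Outside heparan sulfate, *Xylt2* (0.32 and 0.37) had positive ratios and *Chst15* had -0.07 and 0.12, while *B3galt6*, *B4galt7*, *Csgalnact2*, *Chpf*, *Chpf2*, *Chst1*, *Impad1*, and *Has2* lay between -0.48 and -1.28, and *B3gat3*, *Fam20b*, *Dse*, and *Papss1* between -0.18 and -1.28. *Chst7*, a second chondroitin 6-O-sulfotransferase and under the 5 CPM limit, had its highest level here, with 11.7 CPM against 2.62 CPM at day 10 and 15.8 CPM against 2.80 CPM at day 14, and log2 ratios of 2.16 (1.15 to 3.02) and 2.50 (1.95 to 3.01). The last gene under the limit, *Hs6st2*, a second heparan sulfate 6-O-sulfotransferase, had 1.80 CPM and 0.865 CPM over stromal cells and reached at most 1.85 CPM in a group at day 10 or day 14. The plot of 8 sulfotransferases and sulfatases shows these levels by group.

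**Figure D3:**
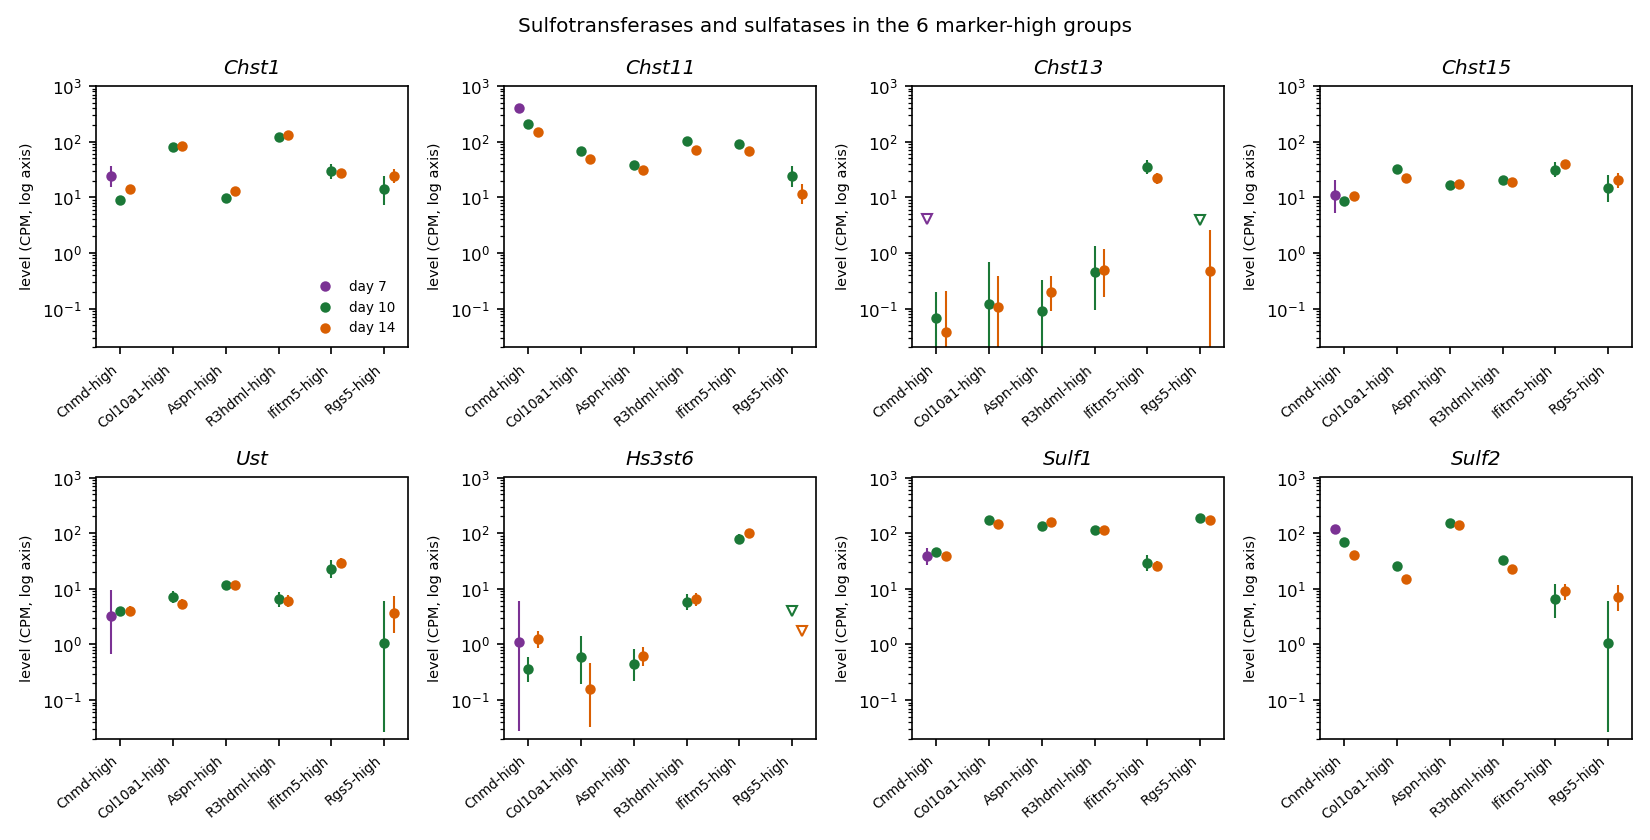
Levels (CPM, log axis) of 6 sulfotransferases and the sulfatases *Sulf1* and *Sulf2* in the 6 marker-high groups, with 1 point per library and exact Poisson 95% intervals. Open triangles are upper limits where no UMI was seen, and day 7 has *Cnmd*-high cells only. *Chst13* and *Hs3st6* stand highest in *Ifitm5*-high cells, *Chst1* in *R3hdml*-high cells, and *Sulf2* in *Aspn*-high cells.

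Levels were also summed by role. In *Cnmd*-high cells sulfate supply reached 1067 CPM and 955 CPM at the later days and 2099 CPM at day 7, and 761 CPM and 534 CPM in *R3hdml*-high cells. Sulfate supply was lowest in *Rgs5*-high cells, at 191 CPM and 186 CPM. The heparan sulfate sum in *Rgs5*-high cells was 482 CPM and 428 CPM out of 1188 CPM and 1130 CPM for all 40 genes, while in *Cnmd*-high cells it was 329 CPM and 259 CPM out of 3171 CPM and 2735 CPM. *Sulf1* made up 189 CPM and 176 CPM of the sum in *Rgs5*-high cells and 45.6 CPM and 38.6 CPM in *Cnmd*-high cells. The linkage sum ran from 449 CPM and 413 CPM in *Cnmd*-high cells to 114 CPM and 130 CPM in *Rgs5*-high cells.

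**Figure D4:**
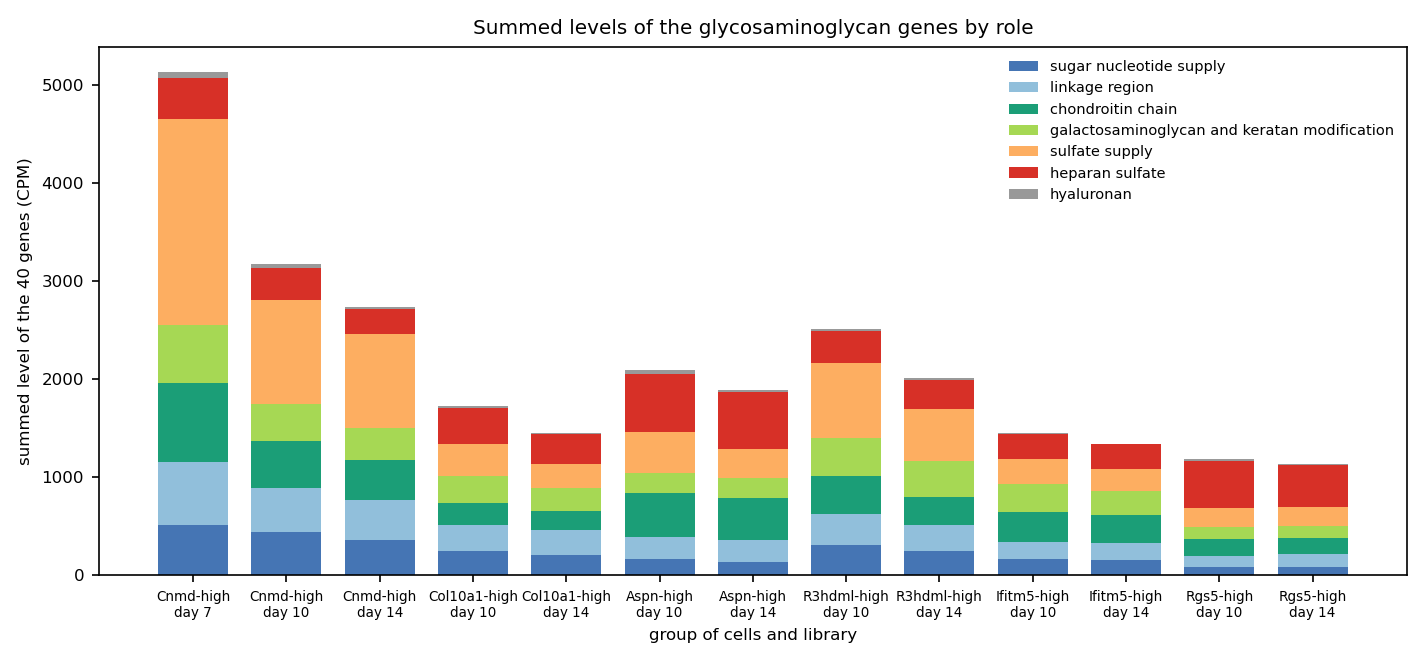
Summed levels (CPM, from 0) of the 40 genes by role in the 6 marker-high groups and each library, as stacked bars without intervals. The sulfate supply part shrinks from 1067 CPM in *Cnmd*-high cells to 191 CPM in *Rgs5*-high cells at day 10, and the heparan sulfate part is tallest in *Aspn*-high cells at the later days.

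The set holds 7 pairs of related genes for the same step, and their balance differed between groups. The ratio of UMIs within a pair was used to compare groups, since genes can differ in how well they are captured. *Xylt1* to *Xylt2* was 35.6 (32.0 to 39.8) at day 10 and 40.8 (34.9 to 48.1) at day 14 in *Cnmd*-high cells, 7.24 (6.08 to 8.68) and 9.83 (8.61 to 11.3) in *Col10a1*-high cells, and 1.09 (0.441 to 2.73) and 2.37 (1.49 to 3.87) in *Rgs5*-high cells. *Papss2* to *Papss1* was 3.41 and 3.23 in *Cnmd*-high cells, 3.97 and 3.46 in *R3hdml*-high cells, 1.14 and 0.828 in *Aspn*-high cells, 0.693 and 0.829 in *Ifitm5*-high cells, and 0.273 and 0.370 in *Rgs5*-high cells. Both pairs had their lowest balance in *Rgs5*-high cells.

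*Csgalnact1* to *Csgalnact2* was 2.67 and 2.15 in *Cnmd*-high cells, 0.452 and 0.386 in *Col10a1*-high cells, and 0.133 (0.0465 to 0.314) and 0.0763 (0.0358 to 0.145) in *Ifitm5*-high cells. *Chst11* to *Chst12* was 2.08 and 1.49 in *Cnmd*-high cells and 0.582 and 0.426 in *Aspn*-high cells. *Sulf1* to *Sulf2* was 0.665 and 0.959 in *Cnmd*-high cells, 0.903 and 1.14 in *Aspn*-high cells, 6.77 and 9.92 in *Col10a1*-high cells, and 25.1 (15.0 to 45.4) in *Rgs5*-high cells at day 14, with 1 *Sulf2* UMI at day 10. *Chsy1* to *Chsy3* varied less, from 1.90 in *Rgs5*-high cells at day 10 to 6.97 in *Ifitm5*-high cells at day 14, and *Chpf* to *Chpf2* ran from 1.28 to 2.62 at the later days. Across these pairs, the first named gene of 4 (*Xylt1*, *Papss2*, *Csgalnact1*, and *Chst11*) led most in *Cnmd*-high or *R3hdml*-high cells.

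Between day 10 and day 14, *Slc26a2* and *Extl1* were 2-fold lower in the stromal cells as a whole, and neither was within the *Cnmd*-high cells. *Slc26a2* had 304 CPM in stromal cells at day 10 and 146 CPM at day 14, a log2 ratio of -1.05, while in *Cnmd*-high cells it had 466 CPM and 358 CPM, a log2 ratio of -0.38. *Papss2* had log2 ratios of -0.69 in stromal cells and -0.02 in *Cnmd*-high cells, and *Chst11* of -0.89 and -0.48. The *Cnmd*-high cells were 2329 of 6573 stromal cells at day 10 and 1284 of 9516 at day 14, and a change in the mix of cells and a change within cells cannot be told apart in the stromal totals. Within the groups, 0 of the 35 genes were 2-fold higher or lower at day 14 in *Cnmd*-high, *Col10a1*-high, and *R3hdml*-high cells, with median log2 ratios of -0.20, -0.26, and -0.30 for the set against -0.03, -0.10, and -0.04 over all genes. The share of all genes past 2-fold between the days was not counted. The counts by day, in groups or in stromal cells as a whole, thus have no such share beside them. In *Aspn*-high cells *Slc26a2* (-1.07) and *Extl1* (-2.08) were 2-fold lower at day 14, and in *Ifitm5*-high cells *Has2* (-1.59). In the 71 and 200 *Rgs5*-high cells *Chst11* (-1.07) was lower at day 14, and *Xylt1* (1.22), *Ust* (1.81), and *Sulf2* (2.71), the last 2 from 1 UMI at day 10, were higher.

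At day 7 the 40 genes summed to 3157 CPM in stromal cells, against 2603 CPM at day 10 and 1995 CPM at day 14, and to 5130.5 CPM in *Cnmd*-high cells. *Chst1* at day 7 had 105 CPM in cells without *Cnmd*, above the 38.9 CPM and 33.9 CPM of the later days. The day 7 cells are few and came from a library of other makeup, and day and library cannot be told apart.

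Other genes of the pathway and the core proteins that carry the chains were counted from lists that hold no gene of the set, and *Acan*, *Hapln1*, *Ogn*, and *Cspg4* are also among the markers. Of 17 tested other synthesis genes (31 listed), *Gfpt2*, which feeds the hexosamine pathway, was called higher in *Cnmd*-high cells, with log2 ratios of 2.14 and 2.17, and *Chst2*, a keratan sulfate and mucin sulfotransferase, was called lower (-2.04 and -1.68). *Gfpt2* was called lower in *Col10a1*-high, *Aspn*-high, and *Rgs5*-high cells, and the hyaluronan synthase *Has1* in *Col10a1*-high cells (-2.87 and -2.45). In *R3hdml*-high cells *Chst2* was called lower, and in *Ifitm5*-high cells *Chst2*, *Gfpt2*, *Ugp2*, and *Glce*. No gene of this list was called higher outside the *Cnmd* comparison. In those other comparisons between 0.436% and 7.15% of all genes were called higher.

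Of 24 tested core protein and link genes (28 listed), 8 were called higher in *Cnmd*-high cells, among them *Acan* with log2 ratios of 2.32 and 2.13, *Epyc* with 7.11 and 6.59, and the link protein *Hapln1* with 3.86 and 4.31, and 4 lower, among them *Vcan*, the large proteoglycan of loose tissue, with -4.54 and -4.17. In *Col10a1*-high cells 0 were called higher and 7 lower, the small leucine-rich proteoglycans *Omd* (-3.07 and -3.28) and *Fmod* (-2.70 and -2.99) among them, and *Acan* had -0.06 and -0.27. In *Aspn*-high cells *Vcan* (2.04 and 2.34) and the syndecan *Sdc1* (1.31 and 1.30) were called higher and *Acan* (-1.33 and -1.21) lower. In *Rgs5*-high cells the heparan sulfate core proteins *Gpc4* (2.27 and 1.88), *Sdc1* (2.03 and 1.11), *Agrn* (1.29 and 1.47), and *Gpc6* (1.07 and 1.20) were called higher, while *Sdc3*, *Sdc4*, *Gpc1*, *Gpc3*, and *Hspg2*, which also carry heparan sulfate, were among the 16 called lower. In *Ifitm5*-high cells the glypican *Gpc1* was called higher (1.48 and 1.19) and 11 lower, and in *R3hdml*-high cells 0 were higher and *Vcan* and *Ogn* lower. The shares of all genes called higher and lower were 3.06% and 10.7% for *Cnmd*, 6.41% and 7.66% for *Col10a1*, and 5.46% and 3.87% for *Aspn*. They were 7.15% and 8.71% for *Rgs5*, 2.25% and 11.6% for *Ifitm5*, and 0.436% and 2.76% for *R3hdml*.

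Of the degradation genes (16 tested of 21 listed), 0 were called higher and 3 lower in *Cnmd*-high cells, where 3.06% and 10.7% of all genes were. In *Aspn*-high cells 2 were higher and 0 lower (5.46% and 3.87% of all genes), and in *Rgs5*-high cells 2 and 1 (7.15% and 8.71%). In *Col10a1*-high cells 1 was higher and 1 lower (6.41% and 7.66%), in *Ifitm5*-high cells 0 and 2 (2.25% and 11.6%). In *R3hdml*-high cells 0 were called (0.436% and 2.76%). *Cemip2*, a cell surface hyaluronidase, was lower in *Cnmd*-high cells (-1.11 and -1.01) and higher in *Aspn*-high cells (1.32 and 1.22), and the lysosomal sulfatases *Arsb* in *Aspn*-high cells (1.25 and 1.20) and *Galns* in *Rgs5*-high cells (1.61 and 1.10) were higher. *Galns* was lower in *Cnmd*-high cells, *Gusb* in *Col10a1*-high cells, *Cemip2* in *Ifitm5*-high cells, and *Cemip* in *Rgs5*-high cells. *Idua*, a lysosomal iduronidase, was higher in *Col10a1*-high cells (1.23 and 1.23). The degradation genes had medians of -0.73 and -0.66 in the *Cnmd* comparison and 0.65 and 0.63 in the *Aspn* comparison, against 0.25 and 0.07 and against 0.00 and 0.06 for the set.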

How the data were processed

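The authors aligned the reads to mm10 with Cell Ranger, collapsed the UMIs, and deposited whole UMI counts per gene and cell for 3 libraries, without normalization. The processing notes name Cell Ranger 3.0, the matrix headers 3.1.0, and the paper's methods another version, and the labels and methods name different releases of the 3′ kit. The deposited barcodes numbered 9103, 8801, and 12984 at day 7, day 10, and day 14, and 7017, 6593, and 9853 were within the study's limits on genes, mitochondrial, and hemoglobin UMIs.

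The 40 genes, the other gene lists, the cutoffs, and the comparisons were chosen with earlier results of these data known, and the 7 enzyme pairs and 4 genes with printed sequences after their values were seen. UMIs were summed over the cells of a group and divided by the group's total, 3860809, 113359307, and 150314182 UMIs in all stromal cells. Levels have exact Poisson and ratios exact binomial 95% intervals. UMIs of cells of 1 library are not replicates, so intervals cover counting error only. A count of 0 was set to 3, and a gene needed 5 CPM in stromal cells of both days, a group 20 cells, and a marker-high cell 2 UMIs of its marker. Values are given for up to 8 of the set per comparison and direction, those with the largest mean ratio among the called, for all genes under the CPM limit, and for up to 4 called genes of each other list, and a few more were named after their values were seen. Some called genes of the other lists are not reported here. No doublet caller was run, and the upper limit of 5000 genes and cells in 1 group alone stand in for it. The alternatives were a mean over cells of UMIs per 10,000, totals without the 20 top genes, doubled and halved cutoffs, no upper limit of genes, no stromal gate, cells of 1 group alone, cells thinned to 2000 UMIs, and no CPM limit. Centered ratios, cells below a cutoff of neutrophil RNA, and cells without shared barcodes were added after seeing the data. Gene positions are from GENCODE M21, which holds all 40 genes, and sequences from RefSeq on GRCm38.p6. The ratio code was tested on simulated data. Python 3.11.15, numpy 2.4.6, scipy 1.17.1, pandas 2.3.3, and matplotlib 3.10.9 were used.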

Additional observations from a re-analysis of the deposited data

Results flagged for a closer look

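Opposite signs of the ratio were seen for 3 genes in different libraries, each with an interval that leaves out 0, and the difference between the days was not tested because each day had 1 library. In the *R3hdml* comparison, *Ugdh* had a log2 ratio of -0.22 at day 10 and 0.12 at day 14, both small. In the *Aspn* comparison, *Csgalnact1* had -0.47 at day 10 and 0.24 at day 14, where its level in *Aspn*-high cells was 59.9 CPM and 60.8 CPM and that in the other stromal cells was 83.3 CPM and 51.6 CPM. In the *Cnmd* comparison, *Sulf2* had log2 ratios of 1.47, -0.45, and -1.34 over the 3 days, and 117, 68.7, and 40.2 CPM in *Cnmd*-high cells and 42.3, 93.8, and 102 CPM in the reference cells.

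The *Ptprc*-positive cells of day 7, which the comparisons leave out and in which neutrophil markers summed to 286108 CPM, carried 3 of the sulfotransferase genes above their level in the stromal cells of all libraries. *Ndst1* had 92.4 CPM, *Chst15* 55.8 CPM, and *Chst13* 17.9 CPM in these 6570 cells.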

How the results depend on the processing

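Over 12 alternative settings, 122 of 144 counts of called genes stayed within 1.5 times the main count, and of 777 values of single genes 727 kept their call, 50 lost it, and 0 changed direction. The number higher in *Aspn*-high cells was 1 in place of 2 with means over cells, totals without the 20 top genes, doubled cutoffs, halved cutoffs, thinned cells, and centered ratios. The number lower in *R3hdml*-high cells was 1 in place of 2 with means over cells, totals without the top genes, halved cutoffs, no upper limit of genes, cells of 1 group alone, thinned cells, and centered ratios. The number higher in *Ifitm5*-high cells was 1 in place of 2 with means over cells and halved cutoffs, and that in *Col10a1*-high cells was 2 in place of 4 with halved cutoffs and thinned cells. Without the CPM limit, 2 genes were higher in *R3hdml*-high cells in place of 1, 4 in *Ifitm5*-high cells, and 1 in *Rgs5*-high cells in place of 0, since more genes could be called. Centered ratios gave 11 higher and 2 lower in *Cnmd*-high cells in place of 7 and 6. Shares called over all genes were counted in the main setting only, so counts under the other settings have no such share beside them. The causes of the other shifts were not tested. In thinned cells 3 values could not be had (*Extl1* in *Ifitm5*-high and *Rgs5*-high cells and *Ust* in *Rgs5*-high cells). Leaving out cells at or above the cutoff of neutrophil RNA, or cells with shared barcodes, kept 65 of 65 calls. No paired analysis was possible because each day had 1 library. Precision is limited by the small number of cells in the *Ifitm5*-high and *Rgs5*-high groups, and by depth in the latter.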
